A study of Mus musculus with 2 samples.

Results

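The genes described here are 45 genes of the cell division cycle and of DNA replication, chosen by name from textbook roles. The choice was made with earlier results of these data known. The genes were followed on the arrays of sorted regulatory and other CD4+ T cells. A probe set was counted as a member if the array annotation paired it with exactly 1 of the listed symbols. This gave 107 probe sets for 44 of the 45 genes, out of 45101 probe sets and 18193 named genes on the array. Ccnb1, which encodes a mitotic cyclin, was not analysed here, because the annotation used names no probe set for it. By role, 13 genes with a probe set act in DNA replication (S phase), 21 in mitosis, 7 are regulators of G1 and 3 are inhibitors of cyclin-dependent kinases.

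The GFP-positive group holds CD4+ GFP+ FoxP3+ T cells and the GFP-negative group CD4+ cells without GFP and FoxP3, both from mice of the DEREG strain. All cells therefore carry the same transgene, in which the Foxp3 promoter drives GFP, and the sort gate reads that promoter. Negative selection for CD4+ cells came before the sort, whose stated purity was above 99%. Each group has 1 Affymetrix array, so there is no replicate and no test, and every difference below is one between these 2 arrays. The sources used here do not give the organ, nor the age, number or treatment of the mice.

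A dividing cell loads the MCM helicase on its DNA in G1 with the help of Cdc6 and Cdt1, copies the DNA in S phase, and then builds a spindle and segregates its chromosomes in mitosis. E2F factors switch on the replication genes at the G1 to S transition, whereas many mitotic genes are switched on later through the CHR element and CCAAT boxes in their promoters. Regulatory T cells are known to contain a fraction of cycling cells in healthy mice.

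Foxp3 itself, the check of the labels, had a signal of 504.4 on the GFP-positive array, against 173.2 on the GFP-negative one, which is 2.91-fold higher in the direction of the labels, although GFP-negative cells too exceeded the floor described next. The signal floor, 67.74, is the 90th percentile of signals from genes restricted to other tissues, and it stands in for detection calls. The CD4 T cell markers Cd3d, Cd3e, Cd3g, Cd4 and Cd5, 5 of 6 listed, were above it on both arrays. Signals are MAS5 intensities, and each difference is the log2 signal of GFP-positive cells minus that of GFP-negative cells. On at least 1 array, 9820 genes exceeded the floor, with a median difference of −0.01, and 48.4% of them were higher in GFP-positive cells. For a yardstick of scatter, probe sets of the same gene differed from each other with a standard deviation (SD) of 0.39 log2, or 1.31-fold, from 7711 probe sets of 3055 genes. This yardstick holds no variation between animals, sorts or arrays. The ratio of 3′ to 5′ signal, which is higher in degraded or incompletely copied RNA, was 5.30 in GFP-positive cells and 3.57 in GFP-negative cells for Actb, and 9.27 in GFP-positive cells and 6.24 in GFP-negative ones for Gapdh.

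E2F motifs were found mostly in promoters of S phase genes and CHR elements mostly in those of mitotic genes. They were read from the RefSeq promoter table of mouse build GRCm38.p6, in windows from 250 bases before to 50 bases after an annotated start, which existed for 36 of the 45 genes, Ccnb1 included. An E2F motif was counted as TTTCCCGC, TTTCGCGC, TTTGCCGC or TTTGGCGC on either strand. It stood in a window of 6 of 11 S phase genes, 1 of 16 mitotic genes and 2 of 6 G1 regulators. Over all 27025 genes with a window, the share was 2.6%. The CHR element was counted as TTTGAA on either strand. It stood in a window of 1 of 11 S phase genes, 11 of 16 mitotic genes and 1 of 6 G1 regulators. Over all genes with a window, the share was 20.2%. In Bub1b, Aurka, Cenpa and Plk1 the only CHR match lay after the start. The E2F matches of Mcm3 and Cdt1 lay there too. A CCAAT box on either strand was found for 8 of 11 S phase genes and 14 of 16 mitotic genes, and in 41.1% of all genes. A match describes the letters in the window and shows no binding, and other forms of these motifs were not counted.

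The S phase promoters of Mcm5, Mcm6 and Cdc6 are shown for their E2F motifs. The windows are at chr8:75109259-75109558 on the plus strand for Mcm5, chr1:128359656-128359955 on the minus strand for Mcm6 and chr11:98907901-98908200 on the plus strand for Cdc6. Each is written 5′ to 3′, with capitals for E2F motifs, CHR elements and CCAAT boxes, each on either strand, so that a CCAAT box can read ATTGG and a CHR element TTCAAA. Overlapping E2F matches on opposite strands share 4 bases in Mcm5 and 4 in Mcm6.
Mcm5: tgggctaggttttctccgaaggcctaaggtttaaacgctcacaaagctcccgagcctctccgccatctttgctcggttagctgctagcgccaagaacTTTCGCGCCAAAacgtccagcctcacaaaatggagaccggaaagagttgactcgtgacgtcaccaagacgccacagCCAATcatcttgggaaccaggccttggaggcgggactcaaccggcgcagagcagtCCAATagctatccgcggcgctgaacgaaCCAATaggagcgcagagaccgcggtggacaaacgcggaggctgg
Mcm6: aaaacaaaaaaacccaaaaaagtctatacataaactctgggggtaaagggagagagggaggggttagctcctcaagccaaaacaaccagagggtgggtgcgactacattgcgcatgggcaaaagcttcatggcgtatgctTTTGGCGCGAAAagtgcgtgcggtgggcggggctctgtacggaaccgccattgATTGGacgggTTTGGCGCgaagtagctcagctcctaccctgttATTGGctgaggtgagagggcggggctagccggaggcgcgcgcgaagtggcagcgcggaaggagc
Cdc6: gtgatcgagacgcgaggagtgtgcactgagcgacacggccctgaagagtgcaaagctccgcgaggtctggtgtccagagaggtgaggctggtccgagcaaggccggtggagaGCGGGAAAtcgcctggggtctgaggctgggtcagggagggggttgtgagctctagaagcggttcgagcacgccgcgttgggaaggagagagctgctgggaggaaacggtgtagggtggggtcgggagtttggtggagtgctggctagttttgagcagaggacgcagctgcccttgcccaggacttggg

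The mitotic promoters of Mki67, Top2a and Cdk1 are shown for their CHR elements, with capitals as above. They lie on the minus strand at chr7:135716330-135716629, chr11:99024140-99024439 and chr10:69352863-69353162. Cdk1 is the mitotic gene that also holds an E2F motif.
Mki67: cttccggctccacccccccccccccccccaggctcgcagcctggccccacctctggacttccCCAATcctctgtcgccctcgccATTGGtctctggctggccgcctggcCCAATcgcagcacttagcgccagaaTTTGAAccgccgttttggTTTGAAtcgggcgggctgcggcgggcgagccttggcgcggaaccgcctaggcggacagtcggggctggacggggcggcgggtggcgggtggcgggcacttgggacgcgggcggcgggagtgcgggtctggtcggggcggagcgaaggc
Top2a: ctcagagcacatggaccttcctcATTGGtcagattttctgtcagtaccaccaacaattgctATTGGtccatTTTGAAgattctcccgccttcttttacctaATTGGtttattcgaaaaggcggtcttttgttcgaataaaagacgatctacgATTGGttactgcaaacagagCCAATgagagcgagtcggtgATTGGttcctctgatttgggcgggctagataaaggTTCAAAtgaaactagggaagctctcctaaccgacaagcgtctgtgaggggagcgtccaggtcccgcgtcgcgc
Cdk1: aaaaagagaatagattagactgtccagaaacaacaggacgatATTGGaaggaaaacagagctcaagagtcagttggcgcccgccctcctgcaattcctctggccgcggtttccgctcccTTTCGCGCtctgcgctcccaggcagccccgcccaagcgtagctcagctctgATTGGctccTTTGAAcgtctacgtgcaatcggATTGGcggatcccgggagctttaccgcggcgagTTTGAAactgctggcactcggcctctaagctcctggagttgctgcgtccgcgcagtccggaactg
The first bases of the CHR elements lay at −116 and −98 in Mki67, −179 and −23 in Top2a, and −71 and −15 in Cdk1, counted from the start as 1.

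**Figure D1:**
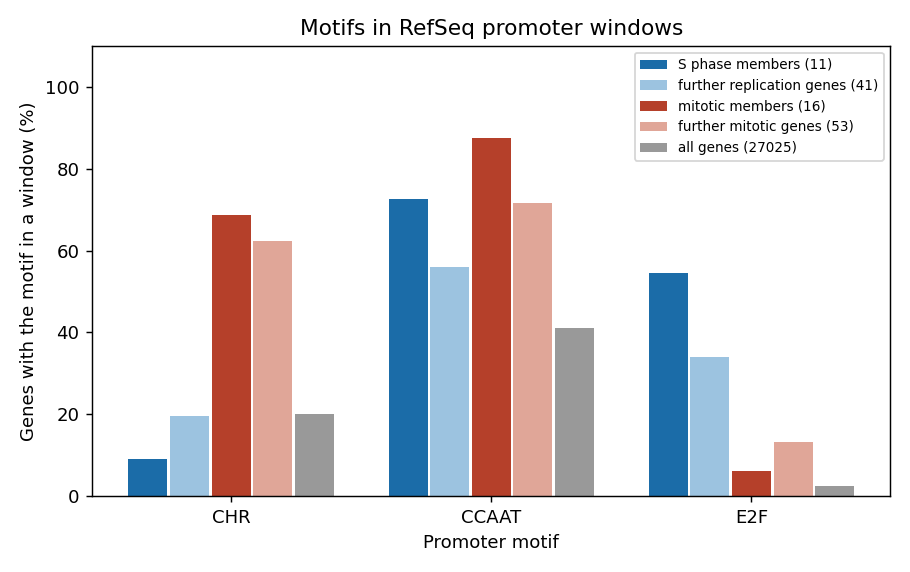
Bars give the percentage of genes whose RefSeq promoter window holds a CHR element, a CCAAT box or an E2F motif, for S phase members, further replication genes, mitotic members, further mitotic genes and all genes, with the number of genes with a window in the legend. The E2F bar is highest for S phase members (54.5%) and the CHR bar for mitotic members (68.8%).

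The cell cycle genes leaned towards higher signals in GFP-positive cells. All 44 genes had a signal above the floor on at least 1 array and 42 on both. Of the 44, 28 were higher in GFP-positive cells, or 63.6% against 48.4% of all genes, and 16 were lower, where 51.6% of all genes were, with a median difference of 0.16 and quartiles of −0.11 and 0.30. None was at least 2-fold higher, where 1.57% of all genes were, and none was at least 2-fold lower, where 1.59% were. At 1.5-fold, 3 members were higher and 2 lower, against 8.27% and 7.52% of all genes. The difference was smaller than the yardstick SD for 32 members (72.7%), against 68.0% of all genes, so the sizes of the members' differences were close to those of genes in general. In bulk samples such as these, more cycling cells and more cell cycle RNA per cycling cell cannot be told apart.

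**Figure D2:**
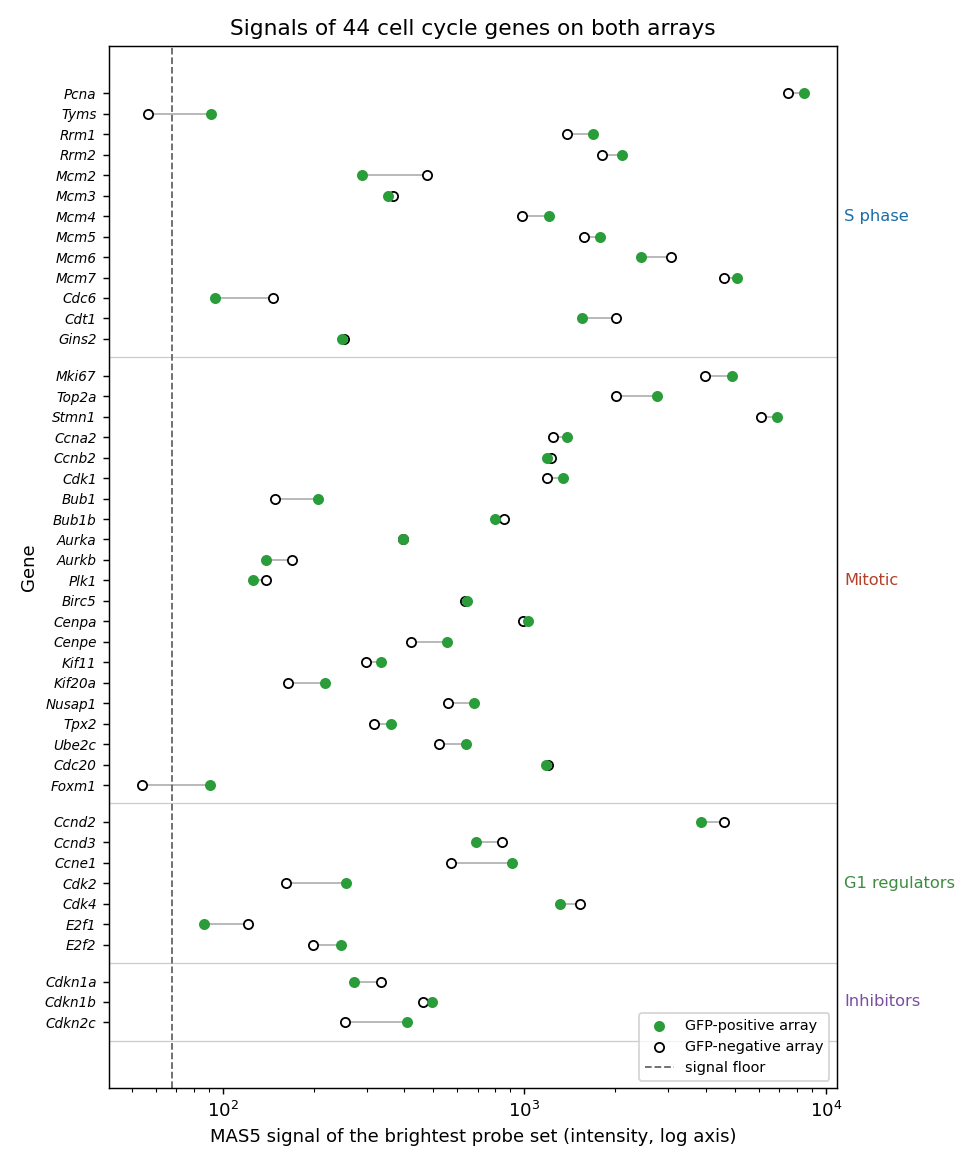
Each row is 1 gene, grouped by role, and the horizontal log axis is the MAS5 signal of its brightest probe set, with filled points for the GFP-positive array, open points for the GFP-negative array and a dashed line at the floor of 67.74. The signals run from 54.1 to 8440.5, and among pairs above the floor on both arrays the points lie farthest apart for Mcm2, Cdkn2c, Ccne1 and Cdk2.

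S phase genes went both ways, with 7 of 13 higher in GFP-positive cells and 6 lower and a median difference of 0.14 and a range of −0.71 to 0.43, the upper end being the lower bound for Tyms. Pcna, the sliding clamp of the replicative polymerases, had signals of 8440.5 in GFP-positive cells, against 7510.4 in GFP-negative cells. Rrm1 and Rrm2 encode the subunits of ribonucleotide reductase, which makes deoxynucleotides. Rrm1 had signals of 1684.6 in GFP-positive cells, against 1383.7 in GFP-negative cells, and Rrm2 2115.1 in GFP-positive cells and 1805.6 in GFP-negative ones. All of these were higher in GFP-positive cells by less than the yardstick SD. Tyms, which makes thymidylate, had 91.1 in GFP-positive cells and 56.6, below the floor, in GFP-negative cells, so that it was at least 1.34-fold higher. Another Tyms probe set went the opposite way, at 50, below the floor, in GFP-positive cells and 77.8 in GFP-negative cells, so the direction for Tyms depends on the probe set.

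The MCM helicase genes, whose products work as 1 ring of different subunits, were split 3 to 3, with a median difference of 0.04. Mcm4 (1206.9 in GFP-positive cells, against 985.1 in GFP-negative cells), Mcm5 (1785.1 in GFP-positive cells and 1578.1 in GFP-negative ones) and Mcm7 (5057.5 in GFP-positive cells and 4599.6 in GFP-negative ones) were higher. Mcm3 (352.0 in GFP-positive cells and 367.5 in GFP-negative ones) and Mcm6 (2437.4 in GFP-positive cells and 3073.9 in GFP-negative ones) were lower. Mcm2 was the member with the largest difference in favour of GFP-negative cells, at 289.7 in GFP-positive cells, against 475.0 in GFP-negative cells, or 1.64-fold lower. Its further probe set, at 276.8 in GFP-positive cells, against 244.0 in GFP-negative cells, went the other way, so the Mcm2 difference depends on the probe set.

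The helicase loaders Cdc6 and Cdt1 were lower in GFP-positive cells on their brightest probe sets, Cdt1 by less than the yardstick SD. Cdc6, with 1 probe set, had 94.5 in GFP-positive cells, against 146.4 in GFP-negative cells, or 1.55-fold lower, and Cdt1 had 1558.5 in GFP-positive cells and 2008.1 in GFP-negative ones, or 1.29-fold lower. A further Cdt1 probe set was nearly level at 287.9 in GFP-positive cells, against 276.6 in GFP-negative cells. Gins2, a subunit of the complex that activates the loaded helicase, had 248.2 in GFP-positive cells, against 252.8 in GFP-negative cells, and its second probe set 92.4 in GFP-positive cells and 72.9 in GFP-negative ones.

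In GFP-positive cells, 16 of the 21 mitotic genes had higher and 5 lower signals, or 76.2% higher against 48.4% of all genes, with a median difference of 0.17 and a range of −0.28 to 0.48. Mki67, which encodes the Ki-67 protein that coats mitotic chromosomes, had 4899.8 in GFP-positive cells, against 3987.2 in GFP-negative cells. Top2a, which untangles DNA before chromosomes separate, had 2747.3 in GFP-positive cells, against 2022.1 in GFP-negative cells, or 1.36-fold higher. Stmn1, a regulator of microtubules, had 6910.4 in GFP-positive cells, against 6118.1 in GFP-negative cells. Among mitotic genes above the floor on both arrays, the largest difference was that of Bub1, a kinase of the spindle checkpoint, with 207.5 in GFP-positive cells, against 148.9 in GFP-negative cells, or 1.39-fold higher, and a second Bub1 probe set was below the floor on both arrays.

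Among the cyclins and their kinase, Ccna2, the cyclin of S phase and G2, had 1390.4 in GFP-positive cells, against 1243.5 in GFP-negative cells, and Cdk1, the kinase that drives mitosis, 1339.8 in GFP-positive cells and 1192.9 in GFP-negative ones. Ccnb2, a mitotic cyclin, was nearly level at 1192.9 in GFP-positive cells, against 1228.7 in GFP-negative cells. Foxm1, a transcription factor of mitotic genes, had 90.7 in GFP-positive cells and 54.1, below the floor, in GFP-negative cells, and was at least 1.34-fold higher, a bound that gives it no rank beside Bub1. The other Foxm1 probe sets were below the floor on both arrays, and Foxm1 did not enter with the floor doubled or with probe sets averaged.

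The genes of the spindle motors Cenpe, Kif11 and Kif20a and of the microtubule binders Nusap1 and Tpx2 all had higher signals in GFP-positive cells. Cenpe, a kinesin of the kinetochore, had 555.5 in GFP-positive cells, against 422.6 in GFP-negative cells, and Kif20a, a kinesin of cytokinesis with 1 probe set, 218.3 in GFP-positive cells and 164.8 in GFP-negative ones. Kif11, which pushes spindle poles apart, had 334.0 in GFP-positive cells, against 299.6 in GFP-negative cells. Nusap1 and Tpx2 bind spindle microtubules, with 681.5 in GFP-positive cells and 560.6 in GFP-negative cells for Nusap1, and 362.2 in GFP-positive cells and 317.2 in GFP-negative ones for Tpx2. Cenpa, the histone of the centromere, was nearly level at 1030.5 in GFP-positive cells, against 992.0 in GFP-negative cells.

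The remaining mitotic members went both ways. Aurka, the kinase of the spindle poles, had 395.7 in GFP-positive cells, against 394.9 in GFP-negative cells. Aurkb, the kinase of the chromosomal passenger complex, had 139.2 in GFP-positive cells, against 169.4 in GFP-negative cells, and Plk1, a kinase of mitotic entry, 126.2 in GFP-positive cells and 139.3 in GFP-negative ones. Birc5, which encodes survivin of the same passenger complex, had 645.5 in GFP-positive cells, against 637.9 in GFP-negative cells. Of the genes that act with the anaphase-promoting complex, Ube2c had 643.1 in GFP-positive cells, against 522.9 in GFP-negative cells, and Cdc20 had 1181.4 in GFP-positive cells and 1194.7 in GFP-negative ones. Bub1b, of the spindle checkpoint, had 797.0 in GFP-positive cells, against 855.8 in GFP-negative cells.

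The S phase and mitotic medians of 0.14 and 0.17 differed by −0.03 log2, S phase minus mitotic, but the S phase median and this difference moved in some of the alternatives. The S phase median was 0.055 with the floor doubled, 0.044 with the probe sets of a gene averaged and 0.058 once probe sets with an x, s or a suffix, which can match several transcripts, were left out, and the S phase minus mitotic difference was −0.11, −0.24 and −0.12 in these. It was −0.03 without a floor and with quantile normalization, −0.045 with loess and −0.004 with another phase assignment. That assignment added Ccne1, E2f1 and E2f2 to the S phase genes and left Mki67, Stmn1, Ccna2 and Foxm1 out of the mitotic ones. Over all probe sets above the floor on both arrays, the medians were 0.058 for 27 S phase probe sets and 0.18 for 31 mitotic ones. With means in place of medians the S phase value was −0.03 and the mitotic value 0.16, and the lowest S phase values were those of Mcm2 and Cdc6. Genes are not replicates, and no test was made of this difference. Within the S phase genes, the 6 with an E2F motif had a median difference of −0.20 and the 5 with a window but no E2F motif one of 0.23. Of those with the motif, all but Cdc6, which had 1 probe set, had probe sets that went both ways. So did Rrm1, Rrm2 and Mcm2 without the motif, and Mcm2 was the lowest S phase gene, at −0.71. Within the mitotic genes, the 11 with a CHR element had a median of 0.05 and the 4 measured genes with a window but no CHR element one of 0.34. These splits by motif were not tested. They go by the exact letters searched, so a gene without a match can hold another form of the motif.

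The S phase and mitotic groups also differed in how often the probe sets of 1 gene pointed the same way, which was counted and not tested. Of the 10 S phase genes with several probe sets above the floor on both arrays, 9 had probe sets that went both ways, and Mcm4 alone had all probe sets higher. Of the 9 such mitotic genes, 1, Bub1b, went both ways, 6 had all probe sets higher and 2, Aurkb and Cdc20, had all lower. Over all 3055 such genes, 54.5% went both ways, 20.9% had all probe sets higher and 24.6% all lower. These genes had 2.50 probe sets each in the S phase group, 2.22 in the mitotic group and 2.52 over all genes. The counts go by sign alone, so a gene near level can count as going both ways. In Rrm1, Mcm5, Mcm7, Cdt1 and Gins2, every probe set above the floor on both arrays differed by less than the yardstick SD. The same held for Bub1b, Aurkb and Kif11 among these mitotic genes.

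The 6 mitotic genes with all such probe sets higher were Top2a, Stmn1, Ccna2, Cenpe, Kif11 and Tpx2. Kif11 had differences of 0.16, 0.28 and 0.37 on its 3 probe sets, and Cenpe 0.39 and 0.36 on its 2. For Tpx2, a pair of further probe sets lay above the floor on the GFP-negative array alone, at 52.2 and 37.2 in GFP-positive cells and 72.8 and 71.5 in GFP-negative ones. Among S phase genes, Rrm2 spanned the widest range, with differences of −0.92, 0.23 and 0.81, and its probe set with the difference of −0.92 had 227.2 in GFP-positive cells, against 429.6 in GFP-negative cells. Mcm6 had −0.33 on the brightest probe set and 0.58 on another, at 603.9 in GFP-positive cells, against 404.2 in GFP-negative cells.

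**Figure D3:**
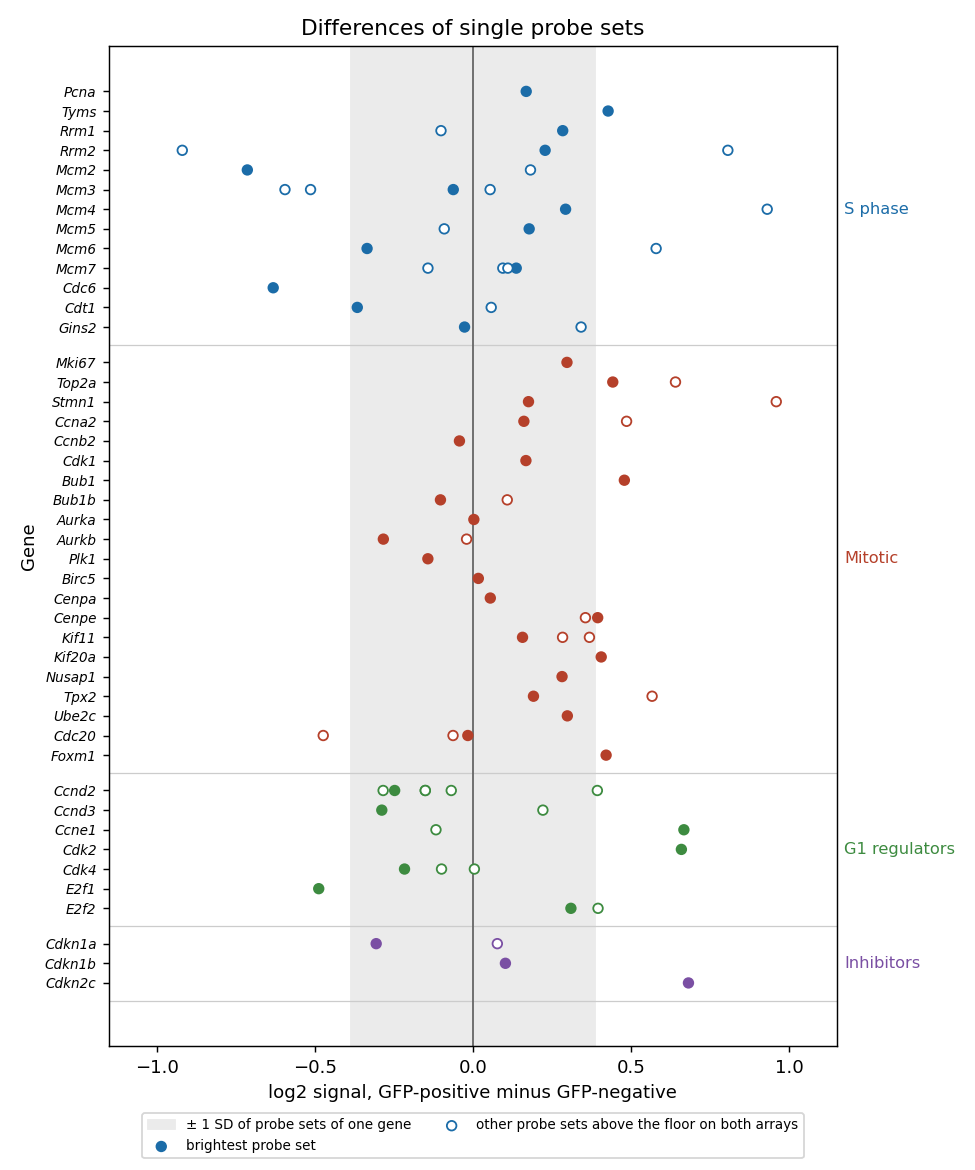
Each row is 1 gene and the horizontal axis is the log2 signal difference, GFP-positive minus GFP-negative, of its probe sets, filled for the brightest and open for others above the floor on both arrays. The grey band is at ± 1 SD (0.39) of the differences of probe sets of one gene about their mean. The values for Tyms and Foxm1 are lower bounds. Points of 9 S phase genes fall on both sides of 0, whereas 6 mitotic genes with several points have all of them to the right.

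The G1 regulators went both ways. The brightest probe sets of the D cyclins Ccnd2 and Ccnd3 and of Cdk4, which carry growth factor and T cell receptor signals into the cycle, were lower in GFP-positive cells by less than the yardstick SD. Ccnd2 had 3871.1 in GFP-positive cells, against 4595.6 in GFP-negative cells, Ccnd3 689.8 in GFP-positive cells and 842.3 in GFP-negative ones, and Cdk4 1314.7 in GFP-positive cells and 1527.4 in GFP-negative ones. For Ccnd2, 1 of the 6 probe sets above the floor on both arrays was higher, at 1138.8 in GFP-positive cells, against 867.0 in GFP-negative cells. A Ccnd3 probe set at 360.9 in GFP-positive cells and 309.6 in GFP-negative cells was higher too, and a Cdk4 probe set was level at 539.9 in GFP-positive cells and 538.2 in GFP-negative ones. Cdk6, the other kinase of the D cyclins and not a member, was higher on both of its probe sets above the floor, at 1959.1 and 1370.9 in GFP-positive cells and 1461.2 and 1087.0 in GFP-negative ones.

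Ccne1 and Cdk2 encode a cyclin E and its kinase, which start DNA replication, and were higher in GFP-positive cells on their brightest probe sets. Ccne1 had 908.7 in GFP-positive cells, against 572.3 in GFP-negative cells, or 1.59-fold higher, but its other probe set had 208.5 in GFP-positive cells and 226.1 in GFP-negative ones. Cdk2 had 255.5 in GFP-positive cells, against 161.8 in GFP-negative cells, or 1.58-fold higher, and a further probe set was below the floor on both arrays. The E2F factors diverged on their brightest probe sets. E2f1 had 86.8 in GFP-positive cells, against 121.7 in GFP-negative cells, or 1.40-fold lower. The other E2f1 probe sets were below the floor on both arrays, and E2f1 did not enter with the floor doubled. E2f2 had 246.3 in GFP-positive cells and 198.7 in GFP-negative ones, with a second E2f2 probe set higher too, at 122.6 in GFP-positive cells and 93.2 in GFP-negative ones.

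Of the inhibitors of cyclin-dependent kinases, Cdkn2c, which encodes the Cdk4 and Cdk6 inhibitor p18, showed the largest difference in favour of GFP-positive cells among members above the floor on both arrays, with 407.2 in GFP-positive cells and 253.9 in GFP-negative cells on its probe set, or 1.60-fold higher. Cdkn1a, which encodes p21, had 271.8 in GFP-positive cells, against 336.0 in GFP-negative cells, and its second probe set was level at 84.5 in GFP-positive cells and 80.1 in GFP-negative ones. Cdkn1b, which encodes p27, a brake on resting T cells, had 494.8 in GFP-positive cells, against 460.8 in GFP-negative cells.

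Further genes of the same processes, not members of the above set, were listed by role, also with earlier results of these data known. Those of mitosis and replication leaned towards GFP-positive cells, but the regulators did not. Of 59 further mitotic genes above the floor, 43 were higher in GFP-positive cells and 16 lower, or 72.9% higher against 48.4% of all genes, with a median of 0.24. The mitotic list was drawn broadly and includes genes of cell cycle control and chromatin, such as Wee1, Cdc25a and H2az1. Of 46 further replication genes, 29 were higher (median difference 0.14) and 17 lower, and of 23 further regulators 9 were higher (median difference −0.06) and 14 lower. Of these 128 genes, 1, Kif20b, was at least 2-fold higher, and 0 were at least 2-fold lower, against 1.57% and 1.59% of all genes.

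Kif20b, a kinesin of cytokinesis, had 306.5 in GFP-positive cells, against 136.7 in GFP-negative cells, or 2.24-fold higher, and its other 3 probe sets were below the floor on both arrays. Wee1, the kinase that holds Cdk1 inactive, had 192.4 in GFP-positive cells, against 97.7 in GFP-negative cells, and Mad2l1, of the spindle checkpoint, had 2013.0 in GFP-positive cells and 1125.7 in GFP-negative ones. Kif2c, a microtubule depolymerase, had 237.7 in GFP-positive cells, against 147.8 in GFP-negative cells, with its other 3 probe sets higher too. In the opposite direction, Cenpm (166.6 in GFP-positive cells, against 249.5 in GFP-negative cells), Ncapd2 (566.6 in GFP-positive cells and 817.2 in GFP-negative ones), Cenpn (166.0 in GFP-positive cells and 223.4 in GFP-negative ones) and Prc1 (558.6 in GFP-positive cells and 725.1 in GFP-negative ones) were lower. For Ncapd2 and Cenpn a further probe set was higher, whereas both probe sets of Prc1, a bundler of midzone microtubules, were lower.

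Among further replication genes, Rfc2 (600.7 in GFP-positive cells, against 327.7 in GFP-negative cells), Timeless (511.0 in GFP-positive cells and 330.1 in GFP-negative ones), Gins3 (157.0 in GFP-positive cells and 101.5 in GFP-negative ones) and Orc5 (446.5 in GFP-positive cells and 300.4 in GFP-negative ones) were higher, and Pola2 (221.9 in GFP-positive cells and 376.9 in GFP-negative ones), Chaf1b (237.6 in GFP-positive cells and 354.7 in GFP-negative ones), Orc4 (225.5 in GFP-positive cells and 317.4 in GFP-negative ones) and Pole2 (645.0 in GFP-positive cells and 839.1 in GFP-negative ones) were lower. Rfc2 belongs to the clamp loader, Pola2 and Pole2 to DNA polymerases, and Orc4 and Orc5 to the origin recognition complex. Other probe sets of Rfc2, Timeless and Orc4 went the opposite way, as many did among the S phase members. Among regulators, Tfdp2, a partner of E2F factors, had 355.5 in GFP-positive cells, against 212.5 in GFP-negative cells, or 1.67-fold higher, though a dimmer probe set, at 53.4 in GFP-positive cells and 97.1 in GFP-negative ones, was lower, and Cdkn3, Cdk6 and E2f3 were 1.37-fold, 1.34-fold and 1.28-fold higher. Skp2, Mybl2, Btg2 and Rbl2 were 1.39-fold, 1.26-fold, 1.12-fold and 1.10-fold lower, but 4 other probe sets of Skp2 and 1 of Btg2 were higher.

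**Figure D4:**
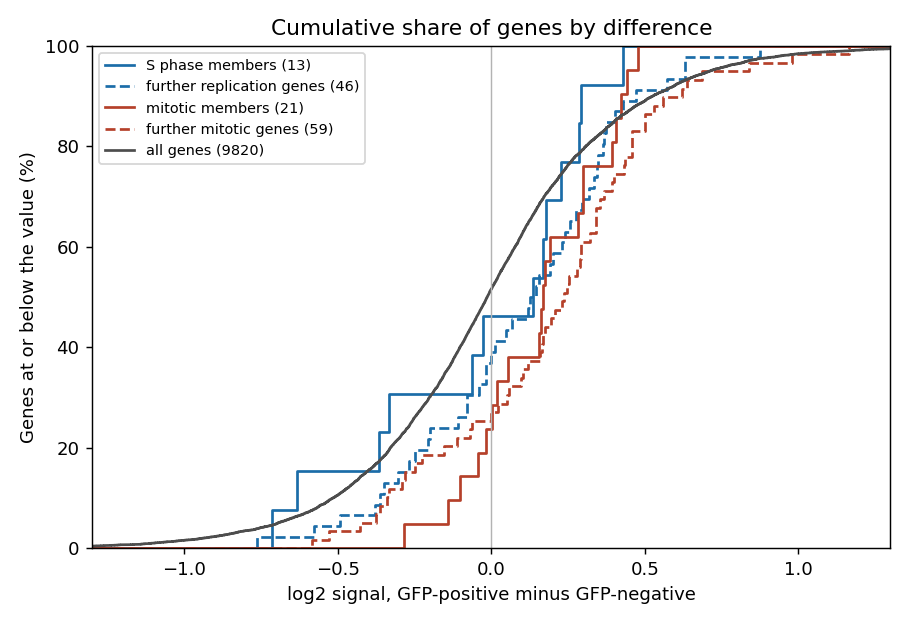
The horizontal axis is the log2 signal difference, GFP-positive minus GFP-negative, and the vertical axis the percentage of genes at or below it, for S phase members, further replication genes, mitotic members, further mitotic genes and all 9820 genes above the floor. The curves of both mitotic groups lie to the right of all genes around 0, where 48.4% of all genes and 76.2% of mitotic members are higher.

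Cell types that cycle and could accompany the sorted cells were read from marker lists. All 4 markers of immature thymocytes, Rag1, Rag2, Dntt and Ptcra, were below the floor on both arrays, with summed signals of 61.8 in GFP-positive cells, against 120.4 in GFP-negative cells. Of 7 B and plasma cell markers with a probe set, 3 were above the floor on each array, with sums of 602.8 in GFP-positive cells, against 661.8 in GFP-negative cells, and Cd79a, Ms4a1, Pax5 and Sdc1 were below it on both. The 3 above it moved in different directions, with Cd79b at 221.9 in GFP-positive cells and 70.8 in GFP-negative cells, Cd22 at 98.3 in GFP-positive cells and 235.1 in GFP-negative ones, and Jchain at 145.4 in GFP-positive cells and 215.4 in GFP-negative ones. Of 7 myeloid markers, 2 were above the floor in GFP-positive cells, against 1 in GFP-negative cells, with sums of 339.1 in GFP-positive cells and 252.7 in GFP-negative ones. Among 4 CD8 T and NK markers the sums were 282.1 in GFP-positive cells, against 280.3 in GFP-negative cells, with Cd8a and Ncr1 below the floor on both. Cd8b1 and Klrd1 were above it on both arrays. Cd8b1 had 100.4 in GFP-positive cells and 115.2 in GFP-negative ones, and Klrd1 148.5 in GFP-positive cells and 103.5 in GFP-negative ones. Of 4 erythroid markers, Hba-a1 and Alas2 were below the floor on both arrays. Klf1 was above it on the GFP-positive array alone, at 85.3, against 40 in GFP-negative cells. The erythroid sums of 1888.0 in GFP-positive cells and 1674.8 in GFP-negative cells came almost wholly from Tfrc, a receptor gene that dividing T cells also use. The part of these cells, and of the higher 3′ to 5′ ratio on the GFP-positive array, in the differences above was not tested.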

How the data were processed

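RNA of 2 sorted CD4+ T cell populations was measured on 1 array each, and the array titles gave the groups. Total RNA (6 µg) was labelled with biotin, per the labels' protocols. The deposited values are linear intensities per probe set, which the submitters' processing notes credit to MAS5. The sources used here give no software version, background settings or detection calls. The authors' values were already scaled between arrays, as their 2% trimmed means were both 150.0, and no further scaling was applied.

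The platform annotation paired 34958 of the 45101 probe sets with 1 gene symbol, 932 with several and 9211 with none. Only those with 1 symbol were compared, which left out 2 probe sets that list a member beside another gene. Updating symbols through gene identifiers, which matched for 34754 probe sets, altered 0 symbols. Of several probe sets, the brightest by mean log2 signal stood for the gene. The floor is the 90th percentile over 122 probe sets of 64 genes, of 70 listed, that are restricted to other tissues, and 14 of these 64 genes passed it by the rule used for all genes. Signals below it were raised to it before log2, and a gene entered with at least 1 signal above it. With 1 signal above it, a fold is given as a lower bound.

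With 1 array per group no test, p-value or standard error is given, and the number of arrays limits the precision. Calls are 2-fold differences. All members, and up to 4 further genes per direction and list above the floor on both arrays, are named. The members and lists were chosen with earlier results of these data known. The steps were tested on simulated data. The planted changes were larger than those of any member and the scatter smaller than the yardstick SD. That test therefore does not cover differences of the size reported here. Python 3.11.15, pandas 2.3.3 and statsmodels 0.14.6 were used. Alternatives were a doubled floor, no floor, averaged probe sets, no probe sets that can match several transcripts, quantile and loess normalization, means, a 1.5-fold threshold and another phase assignment.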

Additional observations from a re-analysis of the deposited data

How the results depend on the processing

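The median of the cell cycle genes lay between 0.11 and 0.18 log2 over 7 alternatives, and their mean was 0.09. Of the 44 genes, 41 entered with the floor doubled, 40 with averaged probe sets and 35 with probe sets of an x, s or a suffix left out. With all probe sets of a gene averaged on the log2 scale, the mitotic median was 0.28 and the S phase minus mitotic difference −0.24. In that setting 2 of 40 members, Top2a at 1.06 and Nusap1 at 1.55, passed 2-fold higher, against 185 of 7911 genes. Both members carry a probe set below the floor on both arrays in that average. With means in place of medians, the S phase value was −0.032 and the S phase minus mitotic difference −0.19. A threshold of 1.5-fold gave 3 members higher and 2 lower, against 8.27% and 7.52% of all genes. Without the 15 members whose probe sets go both ways, which was added after seeing the data, the S phase minus mitotic difference was 0.059. This left only Pcna, Tyms, Mcm4 and Cdc6 in the S phase group, and the Tyms value is a lower bound. The order of the S phase and mitotic medians therefore depended on which genes entered, and the cause was not tested.

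Single members turned sign by more than the yardstick SD in some alternatives. When probe sets were averaged, these were Mcm6 (0.54), Bub1 (−0.14), Bub1b (0.85) and Aurka (−0.48). Each of these averages took in a probe set below the floor on both arrays, which was the only further probe set of Bub1 and Aurka. Mcm6 and Bub1b also had another probe set, above the floor on both arrays, with the sign of the average. When probe sets with an x, s or a suffix, which can match several transcripts, were left out, these were Rrm2 (−0.92), Cdt1 (0.058) and Ccne1 (−0.12). In all, 31 of 44 members kept their sign under all of the 6 floor, probe set and normalization alternatives in which they had a value. The Cdc6 difference was a bound of −0.11 with the floor doubled. Over all genes, those past 2-fold numbered 154 higher and 156 lower, 52 and 57 with the floor doubled, and 3305 and 2420 without a floor. No normalization moved the median of all genes by over 0.1. No paired analysis was possible because each group holds 1 array.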
